A study of Homo sapiens with 2 samples.

Results

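The 10 genes NR0B1, NKX2-2, SOX2, SOX6, PRKCB, VRK1, CAV1, GSTM4, KDSR and FCGRT are reported targets of EWS-FLI at repeats of the bases GGAA. Their loci were examined in CUT&Tag data from TC32, an established Ewing sarcoma cell line, 1 library having been made after siEWS-FLI and 1 after siNEG. CUT&Tag cuts and tags DNA where an antibody sits. The series is described as measuring EWS-FLI binding; the antibody is not named in the labels, and siNEG is not spelled out there and is treated as the arm set beside siEWS-FLI. A locus is the gene with 500 kb on either side, and every deposited peak interval that overlapped it was taken from both libraries. The 10 loci held 49 of the 6370 siEWS-FLI intervals and 136 of the 16284 siNEG intervals. With 1 library a group, differences have no replicate check and none was tested; ranges in brackets are exact 95% intervals and cover counting error only. Because libraries were amplified by 14 and then 20 cycles of PCR, reads are not independent molecules.

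EWS-FLI joins part of the RNA-binding protein EWSR1 to the DNA-binding ETS domain of FLI1, and it drives Ewing sarcoma. The ETS domain reads a GGAA core. Ordinary ETS factors use single GGAA sites, often at promoters, whereas the fusion can also sit on long runs of GGAA, where it recruits chromatin remodellers and turns the repeat into an enhancer. Repeats of this kind lie upstream of NR0B1 and at variable distances from the other genes, so a called interval far from a gene start can still be a candidate regulatory site of that gene.

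The strength of a site is given as its summit pileup, the whole number of extended reads stacked on the summit, together with the authors' fold enrichment over local background and −log10 q. Pileups are raw and unscaled, and the fold has 1 added to both pileup and background. Across each library the background was 0.239 reads per base (siEWS-FLI) and 0.348 (siNEG), and the read ratio outside one mitochondrial window was 0.562, siEWS-FLI over siNEG. An interval was shared when it overlapped an interval of the other library by at least 1 base, and a siNEG interval without such overlap was counted as lost, meaning not called with siEWS-FLI rather than shown to be empty. For each lost site a limit is given, the largest pileup that the siEWS-FLI caller would have left uncalled at the siNEG local background. It is a generous limit, since 20 of the 26 shared siNEG intervals in these loci were called with siEWS-FLI at or below it; at the siEWS-FLI library background a site of up to 3 reads would stay uncalled. The fusion's own level was not measured. Within 50 kb of FLI1 there were 0 siEWS-FLI intervals and 1 siNEG interval of 7 reads (2.81 to 14.4), and within 50 kb of EWSR1 there were 0 siEWS-FLI intervals and 2 siNEG intervals, the stronger of 12 reads (6.2 to 21.0).

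Of the 49 siEWS-FLI intervals, 27 were shared (55.1%, 40.2 to 69.3) and 22 were not (44.9%, against 58.9% of the whole siEWS-FLI list). Of the 136 siNEG intervals, 26 were shared (19.1%, 12.9 to 26.7) and 110 were lost (80.9%), near the 84.4% lost over the whole siNEG list. The total hides a split between the loci. The gene-dense FCGRT window alone held 18 of the 26 shared siNEG intervals. Without it 8 of 92 were shared (8.70%, 3.83 to 16.4) and 84 were lost (91.3%). NR0B1, NKX2-2, SOX2, KDSR and VRK1 kept none of their 31 siNEG intervals, and SOX2, KDSR and VRK1 had no siEWS-FLI interval at all in the window.

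**Figure D1:**
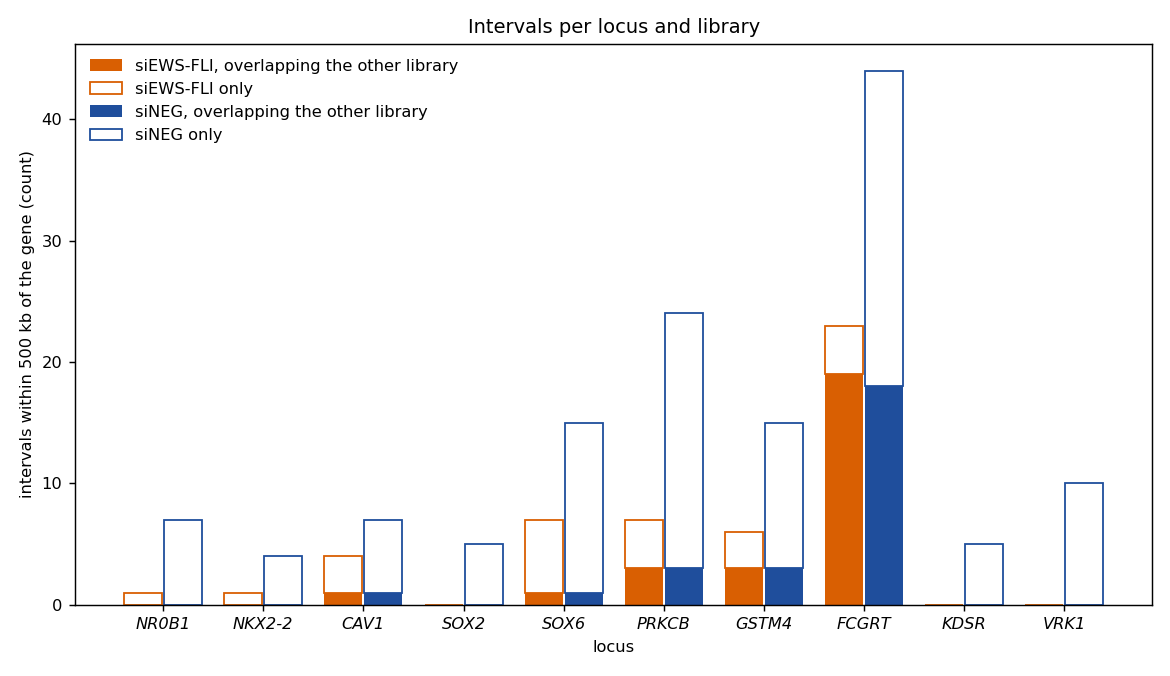
Number of called intervals (vertical axis, count) within 500 kb of each of the 10 genes (horizontal axis), with siEWS-FLI left of siNEG and shared intervals marked within each bar. SOX2, KDSR and VRK1 have 0 siEWS-FLI intervals and 5, 5 and 10 siNEG intervals, while FCGRT has 23 and 44.

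The promoters of these genes are shown first, since sequence was read here for promoters and can be set beside the calls there. The 250 bases upstream of the start are given 5′ to 3′ on the gene's strand from RefSeq GRCh38.p14, with GGAA and its reverse complement TTCC in capitals. The first 3 belong to member genes whose start region carried a siNEG interval that was lost, and CAV1 has the doubled core TTCCTTCC. GNAI3 and EARS2 are neighbours whose starts were called in both libraries, and both hold the extended ETS site CCGGAAGT, printed here with only its core in capitals. The starts of RPS13 (28 siNEG reads) and AP2A1 (250), also called in both libraries, do not hold it and are not printed.
GSTM4 (chr1:109655849-109656098, plus strand): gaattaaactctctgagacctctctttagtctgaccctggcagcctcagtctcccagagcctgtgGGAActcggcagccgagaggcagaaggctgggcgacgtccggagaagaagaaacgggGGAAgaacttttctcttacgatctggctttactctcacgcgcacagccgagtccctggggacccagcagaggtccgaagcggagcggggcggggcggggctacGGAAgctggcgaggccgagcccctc
PRKCB (chr16:23835733-23835982, plus strand): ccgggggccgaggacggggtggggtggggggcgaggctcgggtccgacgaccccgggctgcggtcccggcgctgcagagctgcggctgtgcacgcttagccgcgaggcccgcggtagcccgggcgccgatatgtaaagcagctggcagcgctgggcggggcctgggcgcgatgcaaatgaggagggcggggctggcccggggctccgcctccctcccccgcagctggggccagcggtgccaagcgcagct
KDSR (chr18:63367207-63367456, minus strand): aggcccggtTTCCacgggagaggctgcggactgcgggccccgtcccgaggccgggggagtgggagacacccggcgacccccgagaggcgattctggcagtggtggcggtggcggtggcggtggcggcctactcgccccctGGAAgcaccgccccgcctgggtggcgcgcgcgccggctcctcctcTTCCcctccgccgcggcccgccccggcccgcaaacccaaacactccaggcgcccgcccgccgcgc
CAV1 (chr7:116524759-116525008, plus strand): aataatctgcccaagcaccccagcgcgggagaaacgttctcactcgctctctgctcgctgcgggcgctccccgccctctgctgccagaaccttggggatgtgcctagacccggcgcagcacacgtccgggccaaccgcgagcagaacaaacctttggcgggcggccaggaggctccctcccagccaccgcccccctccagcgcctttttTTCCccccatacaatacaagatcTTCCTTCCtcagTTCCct
GNAI3 (chr1:109548365-109548614, plus strand): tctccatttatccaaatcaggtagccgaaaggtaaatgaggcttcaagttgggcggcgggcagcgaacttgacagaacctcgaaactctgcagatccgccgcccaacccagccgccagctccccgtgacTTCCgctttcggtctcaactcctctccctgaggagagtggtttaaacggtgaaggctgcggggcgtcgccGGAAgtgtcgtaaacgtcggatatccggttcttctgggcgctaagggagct
EARS2 (chr16:23557376-23557625, minus strand): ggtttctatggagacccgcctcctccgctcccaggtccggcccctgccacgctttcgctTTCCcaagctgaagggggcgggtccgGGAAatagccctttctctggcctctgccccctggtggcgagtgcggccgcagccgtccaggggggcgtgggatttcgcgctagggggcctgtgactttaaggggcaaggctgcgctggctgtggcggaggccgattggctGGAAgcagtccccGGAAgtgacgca
None of the 16 promoter windows of the 9 members in the table held 4 GGAA units in a row, which 3 of 22199 protein-coding promoter windows of 300 bases did (0.0135%; GGAA repeated without a gap, both strands). The pair GGAAGGAA, on either strand, was in 3 of the 16 member windows (18.8%), 2 of them overlapping windows of CAV1 and 1 an internal start of SOX6, against 822 of all windows (3.70%). No member window held CCGGAAGT, which 5.34% of all windows did on either strand; every match to it or to GGAAGGAA also counts as a GGAA match. In the 10 loci CCGGAAGT was in 6 of 19 promoter windows that overlapped a shared siNEG interval (31.6%), in 2 of 33 that overlapped a lost one (6.06%) and in 1 of 105 that overlapped no siNEG interval (0.952%). Those 6 windows overlap 4 siNEG intervals, all in the PRKCB and GSTM4 loci, and EARS2 has 2 of the windows; 0 of the 10 windows at shared intervals in the FCGRT locus held the motif. Over the whole siNEG list the shares were 20.8% at shared and 12.9% at lost intervals. These matches describe letters in 300-base windows; the sequence of the distal sites was not read here.

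Among the transcription regulators, NR0B1 encodes DAX1, an orphan nuclear receptor without a DNA-binding domain of the usual kind, and its upstream GGAA repeat is the textbook EWS-FLI element. In the NR0B1 locus (gene at chrX:30304206-30309390, minus strand) there was 1 siEWS-FLI interval and 7 siNEG intervals, none shared. The siNEG site at chrX:30310593-30310884, 292 bases wide and 1.36 kb upstream of the start, had 39 reads (27.7 to 53.3), a fold of 13.0 and a −log10 q of 32.0. It was the strongest of the locus and was not called with siEWS-FLI, where up to 9 reads could have gone uncalled. The single siEWS-FLI interval, chrX:30306738-30306937, lay inside the gene with 5 reads (1.62 to 11.7), a fold of 4.69 and a −log10 q of 2.71, and had no siNEG counterpart. A second siNEG interval close to the gene, 0.837 kb past its 3′ end, had 6 reads. The other 5 siNEG intervals, of 5 to 17 reads, lay 159 to 481 kb away at or near IL1RAPL1, TASL, GK and TAB3. The signal just upstream of NR0B1 was thus a single narrow siNEG site, with no siEWS-FLI interval in its place.

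NKX2-2 encodes a homeodomain factor that acts mainly as a repressor and is needed for the transformed state of Ewing sarcoma cells. Its locus (gene at chr20:21511017-21522689, minus strand) held 1 siEWS-FLI interval, of 4 reads inside KIZ and 340 kb away, and 4 siNEG intervals, none shared. Neither library had an interval in the gene or within 1 kb of it. Instead a pair of siNEG sites lay upstream. The nearer, chr20:21554963-21555972, was 1010 bases wide and 32.5 kb upstream, with 14 reads (7.65 to 23.5), a fold of 5.51 and a −log10 q of 6.08. The farther and stronger, chr20:21576111-21576788, was 53.7 kb upstream in the noncoding gene LINC01727, with 32 reads (21.9 to 45.2), a fold of 11.9 and a −log10 q of 25.5. Both were lost, each with a limit of 8 reads. The remaining siNEG intervals, of 10 and 15 reads at the ends of KIZ and XRN2, a 5′-to-3′ exonuclease gene, were lost as well.

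SOX2, a pluripotency factor, had the weakest signal of the 4 regulators. The locus (gene at chr3:181711925-181714436, plus strand) had no siEWS-FLI interval and 5 siNEG intervals, and all 5 had SOX2 as their nearest protein-coding gene. One of them, chr3:181713045-181713244, lay inside the single-exon gene, with 5 reads and a −log10 q of 2.64. The strongest, chr3:182183541-182184100, was 469 kb downstream, with 18 reads (10.7 to 28.4), a fold of 9.69, a −log10 q of 14.2 and a limit of 6 reads. The other 3, of 4 to 9 reads, were 195, 408 and 498 kb downstream. Apart from the site in the gene, all SOX2 sites were thus distal and on the 3′ side.

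SOX6, a SoxD factor that lacks a transactivation domain of its own, is one of the longest of these genes, at 772 kb (chr11:15966449-16738477, minus strand). The locus had 7 siEWS-FLI and 15 siNEG intervals, with 1 siNEG interval shared. Inside the gene there were 4 siEWS-FLI intervals, of 4 to 5 reads, and 5 siNEG intervals, of 5 to 33 reads, and none overlapped. The strongest, chr11:16001481-16002328 with siNEG, was 848 bases wide and lay in the 3′ part of the gene, 736 kb from the start, with 33 reads (22.7 to 46.3), a fold of 14.9 and a −log10 q of 31.4; up to 7 reads could have gone uncalled with siEWS-FLI. A weaker siNEG site of 13 reads lay nearer the start at chr11:16022224-16022569. With siEWS-FLI alone, intervals of 5 reads were called 0.737 kb past the 3′ end and 0.273 kb upstream of the start (chr11:16738648-16738847). The upstream one was also 0.103 kb from an end of C11orf58. The shared siNEG interval was not at SOX6 but at an end of RPS13, a ribosomal protein gene 339 kb upstream, with 7 siEWS-FLI reads (chr11:17077636-17078099) and 28 siNEG reads (chr11:17077493-17077953). The 5 siNEG sites inside PLEKHA7, a gene for an adherens junction protein, had 6 to 24 reads and were all lost.

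**Figure D2:**
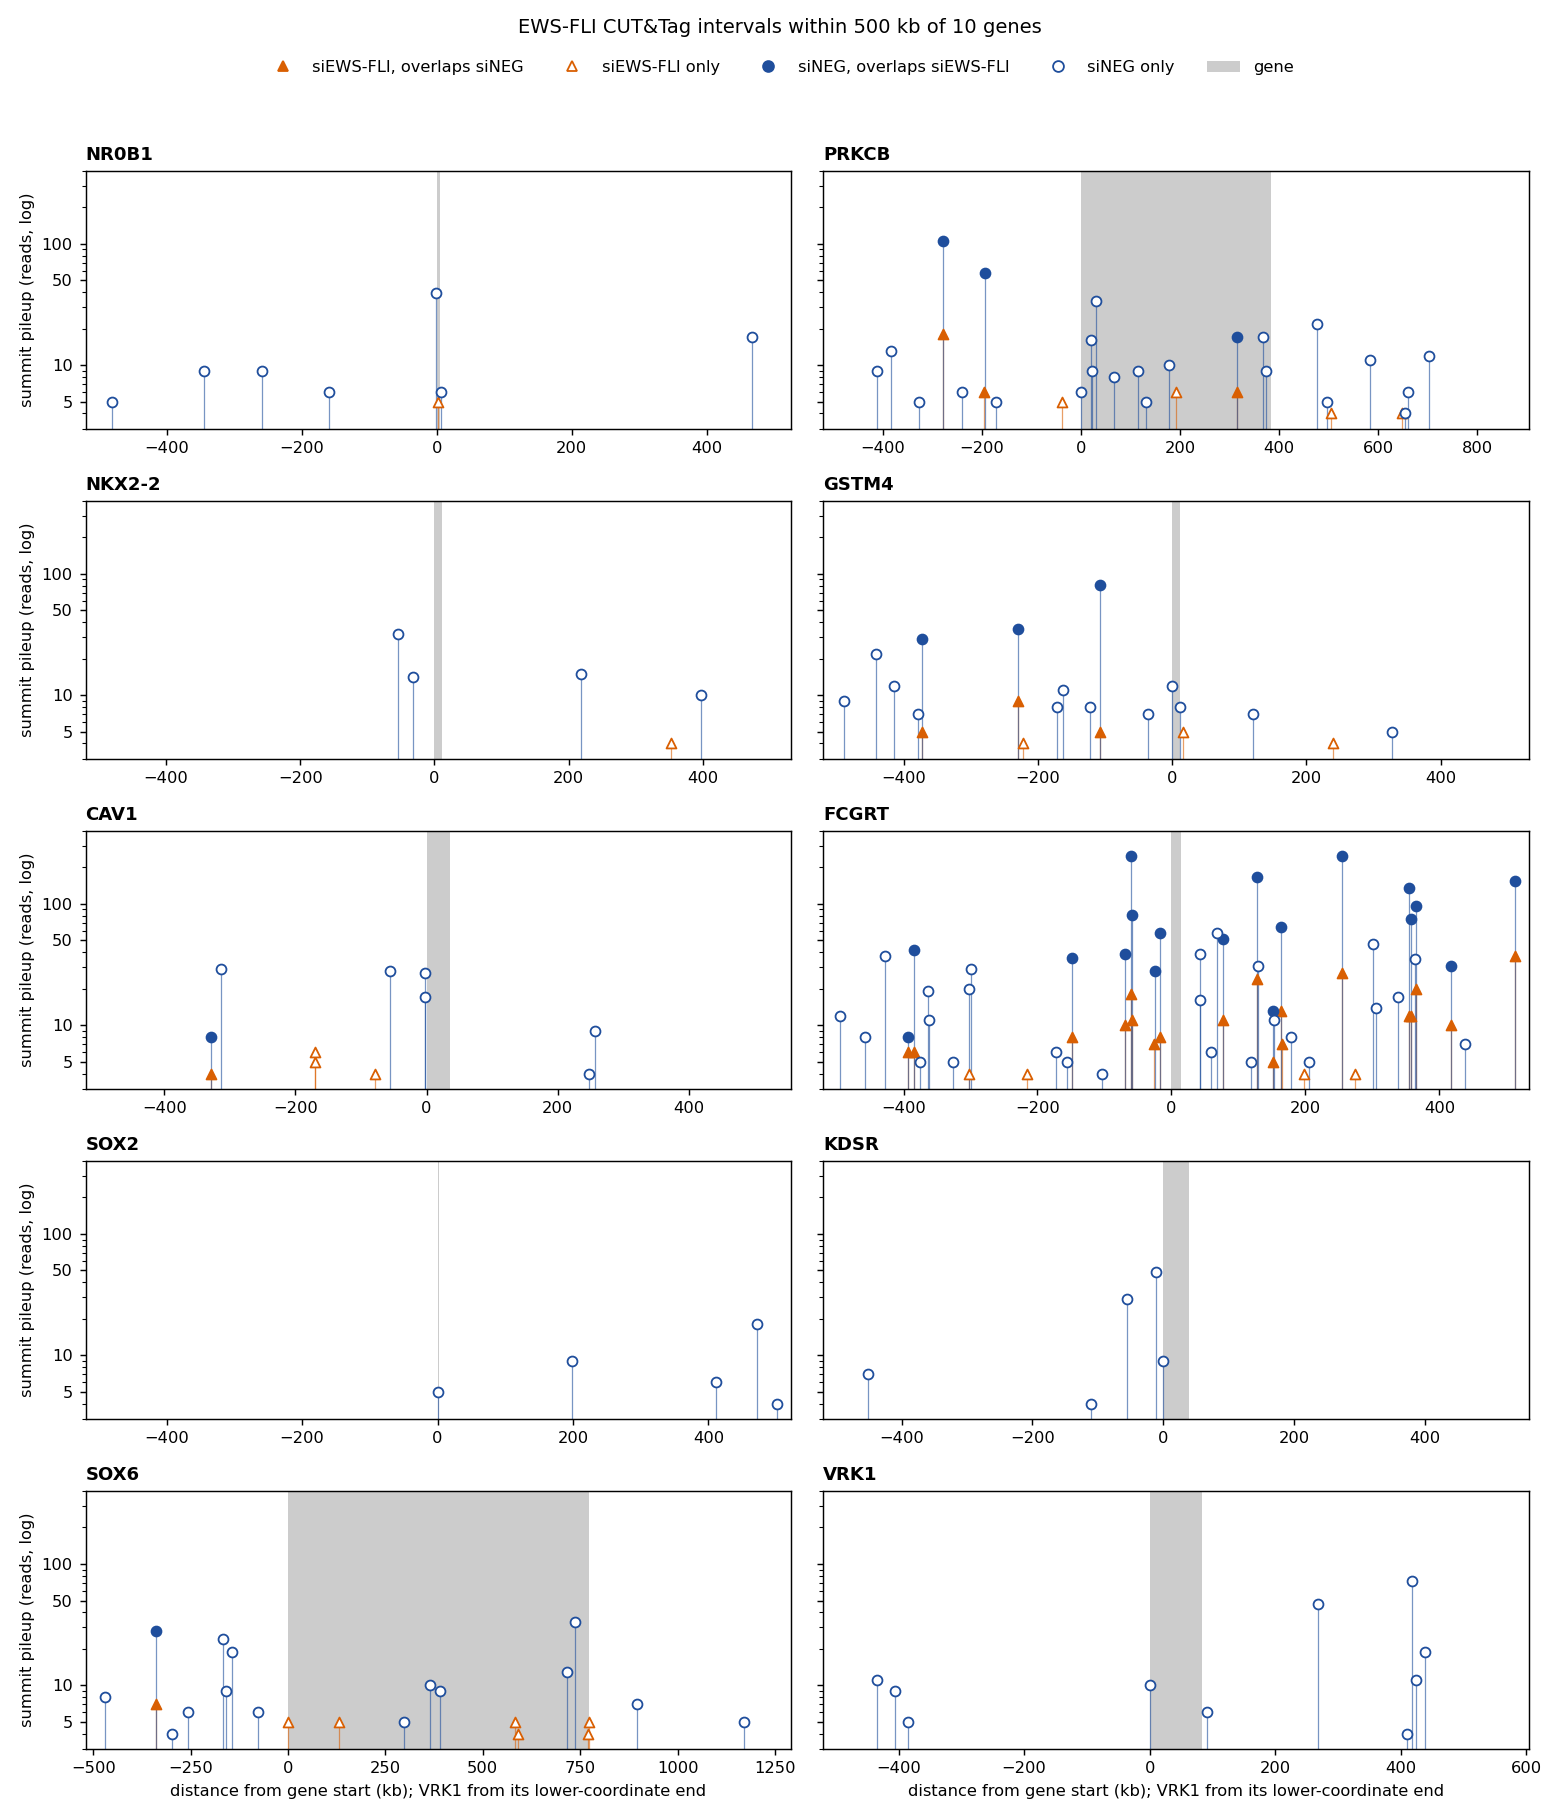
Called sites at the 10 loci, by distance from the gene start (horizontal axis, kb; for VRK1 the lower-coordinate end) and summit pileup (vertical axis, reads, log scale), with the gene body shaded and shared sites marked apart from lost and siEWS-FLI-only ones. The strong siNEG sites near NR0B1 (39 reads), NKX2-2 (32), KDSR (49) and VRK1 (72) have no siEWS-FLI site over them, while the FCGRT window holds 18 shared siNEG sites.

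The kinase loci differed in where their sites lay. PRKCB encodes protein kinase C beta, a diacylglycerol- and calcium-activated kinase, and the gene spans 385 kb (chr16:23835983-24220611, plus strand). The locus held 7 siEWS-FLI and 24 siNEG intervals, with 3 siNEG intervals shared. Inside the gene there were 2 siEWS-FLI and 10 siNEG intervals, the most siNEG sites inside any of the 10 genes. The strongest of them, chr16:23866657-23867235, was 30.9 kb into the gene, with 34 siNEG reads (23.5 to 47.5), a fold of 12.8 and a −log10 q of 28.4. It was lost, with a limit of 8 reads.

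The single site nearest to a member gene that was called in both libraries was the PRKCB site 316 kb into the gene. It had 6 siEWS-FLI reads (2.2 to 13.1; chr16:24151568-24151767, 200 bases, fold 5.30, −log10 q 3.48) and 17 siNEG reads (9.90 to 27.2; chr16:24151357-24151840, 484 bases, fold 8.11, −log10 q 11.3), a ratio of 0.353. Sites of similar siNEG strength in the same gene, of 17 reads at chr16:24203720-24204226 and 16 reads at chr16:23857267-23857866, were lost with limits of 7 reads each. The read ranges of such sites overlap in siNEG, so the retained site did not stand out by its siNEG pileup. The other 6 siNEG sites inside the gene had 5 to 10 reads, and the start region itself had a siNEG interval of 6 reads (chr16:23835627-23835826), all lost. A siEWS-FLI interval of 6 reads at chr16:24028074-24028273 inside the gene had no siNEG overlap. The remaining shared siNEG intervals lay at neighbours, with 18 siEWS-FLI reads (10.7 to 28.4) and 106 siNEG reads (86.8 to 128) at EARS2, a mitochondrial glutamyl-tRNA synthetase gene, and 6 siEWS-FLI reads and 57 siNEG reads (43.2 to 73.9) at DCTN5, a dynactin subunit gene.

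VRK1 encodes a nuclear serine/threonine kinase that phosphorylates chromatin proteins. Its locus (gene at chr14:96797382-96881609) had no siEWS-FLI interval and 10 siNEG intervals, and 7 of those had VRK1 as the nearest protein-coding gene. The 2 strongest were far from the gene on its higher-coordinate side. At 334 kb, chr14:97215361-97215917 had 72 siNEG reads (56.3 to 90.7), a fold of 13.8 and a −log10 q of 56.8, with a limit of 14 reads, the highest pileup of any site whose nearest gene was a member. At 185 kb, chr14:97065808-97066809, 1002 bases wide, had 47 siNEG reads (34.5 to 62.5), a fold of 10.4 and a −log10 q of 31.8, with a limit of 12 reads. The 72-read site was one of 4 siNEG summits within 28.4 kb, the others having 4, 11 and 19 reads. The gene's own lower-coordinate end carried a weaker siNEG interval of 10 reads (4.80 to 18.4), chr14:96797154-96797472, and a site of 6 reads lay 7.24 kb past the higher-coordinate end. All were lost.

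CAV1 encodes caveolin-1, the scaffold of caveolae, and its locus (gene at chr7:116525009-116561185, plus strand) held 4 siEWS-FLI and 7 siNEG intervals, 1 siNEG interval being shared. Upstream of the start lay adjoining siNEG sites with summits 549 bases apart. The nearer, chr7:116522797-116523323, was 1.98 kb upstream, with 27 reads (17.8 to 39.3), a fold of 7.33 and a −log10 q of 14.5. The other, chr7:116522353-116522617, was 2.53 kb upstream, with 17 reads (9.90 to 27.2), a fold of 4.74 and a −log10 q of 5.72. Both were lost with a limit of 11 reads, higher than at NR0B1 because the local siNEG background was higher. Another siNEG site, chr7:116468380-116469179, had 28 reads and lay 56.3 kb upstream of CAV1 and 31.0 kb from CAV2, which encodes caveolin-2. The strongest by −log10 q (25.5) was at the end of TES, with 29 reads and a limit of 7, and it too was lost. The shared interval, 13.1 kb from TES, was weak in both libraries, with 4 siEWS-FLI reads (chr7:116197288-116197487) and 8 siNEG reads (chr7:116197363-116197759). The strongest siEWS-FLI interval, 6 reads at chr7:116355276-116355475 and 170 kb upstream, and the one nearest the gene, 4 reads at 78.3 kb, had no siNEG overlap.

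Among the enzyme genes, GSTM4 encodes a Mu-class glutathione transferase (gene at chr1:109656099-109667727, plus strand). Its locus had 6 siEWS-FLI and 15 siNEG intervals, with 3 siNEG intervals shared, all at the ends of neighbouring genes. The GSTM4 start itself carried a siNEG interval of 12 reads (6.2 to 21.0), chr1:109656042-109656345, summit 0.065 kb from the start, with a fold of 6.31 and a −log10 q of 6.64. It was lost with a limit of 6 reads. A siNEG interval of 8 reads 0.312 kb past the GSTM4 end was 0.018 kb from an end of GSTM2, a close family member, and how the authors placed reads that match both genes is not stated. The nearest siEWS-FLI interval, 5 reads inside GSTM2 at chr1:109672353-109672552, was called without siNEG overlap. The shared sites had 5 siEWS-FLI reads and 81 siNEG reads (64.3 to 101) at GNAI3, an inhibitory G-protein alpha subunit gene, 9 and 35 reads at PSMA5, a proteasome subunit gene, and 5 and 29 reads at PSRC1.

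KDSR encodes 3-ketodihydrosphingosine reductase, an early enzyme of sphingolipid synthesis. Its locus (gene at chr18:63327726-63367206, minus strand) had no siEWS-FLI interval and 5 siNEG intervals. The strongest, chr18:63377382-63377863, was 10.4 kb upstream in the divergent noncoding gene KDSR-DT, with 49 siNEG reads (36.3 to 64.8), a fold of 15.2 and a −log10 q of 43.2. It was lost, with a limit of 9 reads. A second site at the start region, chr18:63367314-63367731 and 0.208 kb upstream, had 9 reads and a −log10 q of 4.83 and was lost with a limit of 5. An end of VPS4B, an ESCRT ATPase gene, lay 55.4 kb away with 29 reads and was lost with a limit of 7, and the other 2 siNEG intervals had 4 and 7 reads.

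FCGRT encodes the heavy chain of the neonatal Fc receptor, which recycles IgG and albumin, and it was the exception among the 10. No interval of either library lay in the gene (chr19:49512661-49526428, plus strand) or within 10 kb of it, and no siNEG interval had FCGRT as its nearest gene. In all, the window held 23 siEWS-FLI intervals, of which 19 were shared, and 44 siNEG intervals, of which 18 were shared; the wide siNEG interval at PRMT1 overlapped 2 siEWS-FLI intervals. Of its 28 siNEG intervals at gene ends, 15 were shared. Over the whole siNEG list 28.2% were shared at gene ends, and 63.7% at gene ends of 20 reads or more. The window's siNEG sites were strong, with a median of 28.5 reads against 8 over the list. The strongest by −log10 q (220.0) was at AP2A1, a clathrin adaptor gene, with 27 siEWS-FLI reads and 250 siNEG reads. PIH1D1, a gene for a chaperone complex subunit, had 18 siEWS-FLI reads and 250 siNEG reads (220 to 283), a ratio of 0.072. The adjoining ends of ZNF473 and VRK3 had 37 siEWS-FLI reads and 153 siNEG reads, SCAF1 had 24 and 166, and TBC1D17 had 20 and 97. These sites had fewer reads with siEWS-FLI than with siNEG and were still called.

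Further shared siNEG intervals of the FCGRT window were lower with siEWS-FLI as well. ALDH16A1 had 11 siEWS-FLI and 81 siNEG reads, AKT1S1 12 and 75, PRMT1 13 and 65, PRRG2 11 and 51, PPFIA3 6 and 42, SLC17A7 10 and 39, and DKKL1 8 and 36. IL4I1 had 10 siEWS-FLI and 31 siNEG reads, RPL13A 7 and 28, BCL2L12 5 and 13, and C19orf73 6 and 8. The C19orf73 ratio, 0.75, was the one among 26 that lay above the read ratio of 0.562. Strong gene-end sites in the same window could also be lost, as at NOSIP (58 siNEG reads, limit 11).

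Split by location, most shared sites lay at the ends of genes other than the members. Among siEWS-FLI intervals, 1 of 9 inside or within 1 kb of a member was shared, against 21 of 21 at the ends of other genes. Over the whole siEWS-FLI list 84.8% were shared at gene ends and 20.8% farther than 1 kb from every gene end, a split of the same direction. A summit within 1 kb of both a member and another gene was counted with the member; counted with the other gene, as the interval beside C11orf58 and the siNEG one beside GSTM2 could be, 21 of 22 siEWS-FLI and 21 of 51 siNEG intervals at the ends of other genes were shared. Among siNEG intervals, 1 of 22 inside or within 1 kb of a member was shared (4.55%, 0.115 to 22.8), against 21 of 50 at the ends of other genes (42.0%, 28.2 to 56.8), 2 of 30 inside other genes (6.67%) and 2 of 34 between genes (5.88%). Of the 38 siNEG intervals whose nearest protein-coding gene was a member, 37 were lost (97.4%) and 1 was shared (2.63%, 0.0666 to 13.8). Of the other 98, 25 were shared (25.5%, 17.2 to 35.3). Without the FCGRT window this was 7 of 54 (13.0%), and at the ends of other genes 6 of 22 (27.3%, 10.7 to 50.2). The classes also differed in strength. The median siNEG pileup was 9 reads in or within 1 kb of a member. At the ends of other genes it was 28 reads, or 12.5 without the FCGRT window. Over the whole siNEG list 71.8% were lost at gene ends and 91.5% farther than 1 kb from every gene end, so the members' low share is near that of other sites away from gene ends.

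At 20 reads or more, 8 siNEG intervals nearest to a member and over 1 kb from every gene end were lost, 8 of 8 (100%; shared 0.0%, up to 36.9), where the whole list lost 753 of 1176 such intervals (64.0%). At gene ends of that strength, 8 of 27 in the 10 loci were lost (29.6%), against 36.3% over the whole list. The loci were known targets when chosen, so 8 sites describe these loci and no more. The 22 siEWS-FLI intervals without siNEG overlap were all 200 bases wide, the shortest called, with 4 to 6 reads. One of them lay at the end of a gene outside the 10, the interval between SOX6 and C11orf58.

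**Figure D3:**
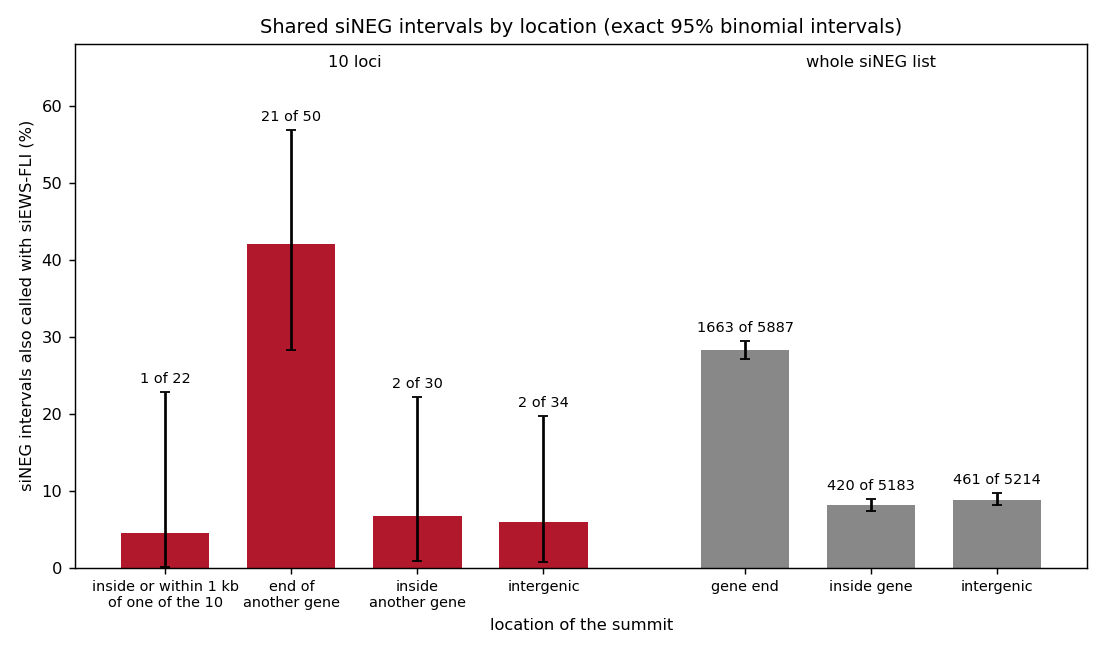
Share of siNEG intervals also called with siEWS-FLI (vertical axis, %) by location of the summit (horizontal axis), for the 10 loci on the left and the whole siNEG list on the right; bars carry exact 95% binomial intervals. In the 10 loci 42.0% were shared at the ends of other genes and 4.55% in or within 1 kb of the 10 genes. Without the FCGRT window the share at the ends of other genes was 27.3%.

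Depth limits what a lost call says. If a lost siNEG site simply followed the read ratio of 0.562, 24 of the 37 lost sites nearest to a member (64.9%) would have passed their limit and been called, and 8 (21.6%) would have passed even from the lower bound of their siNEG pileup. Over the whole siNEG list these shares were 52.6% and 12.6% of 13740 lost intervals. The 8 were the sites of 39 reads at NR0B1, 32 at NKX2-2, 33 in SOX6, 34 in PRKCB, 49 at KDSR, and 72, 47 and 19 at VRK1. At the other 29, including every SOX2 site, the GSTM4 start and both CAV1 upstream sites, the lower bound did not pass its limit. This outcome depends on the limit chosen. Against the 3 reads left uncalled at the siEWS-FLI library background, the scaled lower bound passed at both CAV1 sites (9.99 and 5.56 reads). It also passed at the GSTM4 start (3.48), the strongest SOX2 site (5.99) and some others. At the other SOX2 sites, the one inside the gene (0.912 reads) included, it did not pass. This scaling applies the same ratio to every site, yet 1966 of 2544 shared siNEG intervals of the whole list lay under 0.562. Their median ratio was 0.267 at 20 to 49 siNEG reads and 0.155 at 50 to 99. The scaling thus cannot decide whether the 8 or the 29 fell beyond depth, which was not tested.

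Shared sites also had fewer reads with siEWS-FLI. The median ratio, siEWS-FLI over siNEG, of the 26 shared siNEG intervals was 0.203 (0.0617 to 0.75), and 25 of the 26 were under 0.562; over the whole list it was 0.31 for 2544 intervals, of which 1966 were under 0.562. The ratio fell with siNEG strength. Only called sites enter it, and up to 3 siEWS-FLI reads stay uncalled at the library background. A weak siNEG site thus cannot show a low ratio, and part of the fall follows from the calling. From 20 siNEG reads upward the loci sat close to the list. The median ratio was 0.443 against 0.571 below 20 siNEG reads and 0.25 against 0.267 at 20 to 49. It was 0.149 against 0.155 at 50 to 99, and 0.127 against 0.11 at 100 or more. Each pair gives the 10 loci first and the whole list after it, and the classes held 4, 8, 8 and 6 shared intervals of the 10 loci.

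**Figure D4:**
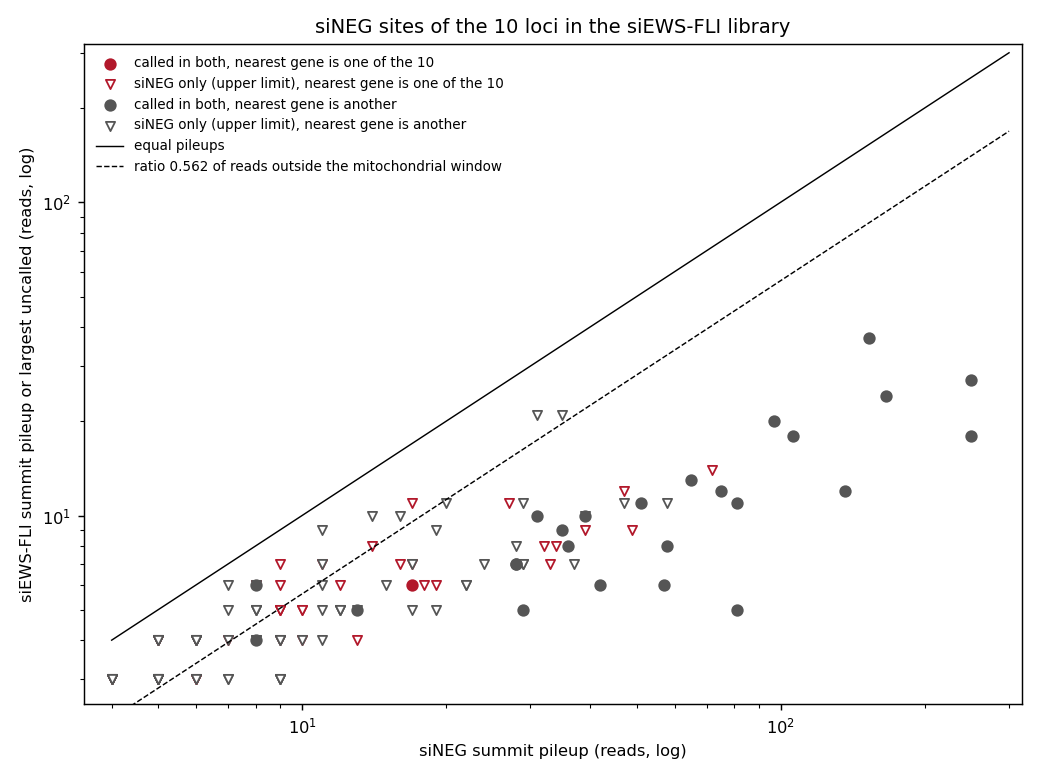
Each siNEG site of the 10 loci by its siNEG summit pileup (horizontal axis, reads, log scale) and its siEWS-FLI pileup or, where lost, the largest pileup that could have gone uncalled (vertical axis, reads, log scale), with the read ratio of 0.562 as a line. Shared sites lie below the line in 25 of 26 cases, and the strong lost sites nearest to a member, such as the 72-read site at VRK1 with a limit of 14, lie below it as well.

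Set against all genes, the members' windows held similar numbers of intervals. They had a median of 2.5 siEWS-FLI and 8.5 siNEG intervals, against 3 and 9 for all 20037 protein-coding genes. A shared interval lay within 500 kb of 5 of the 10 members, against 71.0% of all genes with a siNEG interval there. The strongest siNEG interval of the window was lost at 7 of 10 members (70.0%), against 44.8% of genes; it was kept at PRKCB, GSTM4 and FCGRT, where it belonged to EARS2, GNAI3 and AP2A1. Within 50 kb it was lost at 9 of 10 members (90.0%), against 65.3% of genes.

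A list of 18 further genes, taken as reported EWS-FLI targets, was set beside the members. Whether each of them is bound through a GGAA repeat was not checked here. A siEWS-FLI interval lay within 500 kb of 7 of the 10 members, of 18 of the 18 and of 90.3% of all genes, and a siNEG interval lay within 50 kb of 10 of the 10, 14 of the 18 and 73.3% of all genes. For the 18, within 500 kb the strongest siNEG interval was lost at 15 of 18 (83.3%), and within 50 kb at 13 of the 14 that had one (92.9%). Of 38 siNEG intervals with one of the 18 as nearest gene at any distance, 1 was shared (2.63%, 0.0666 to 13.8). Counted in the same way, without the 500 kb limit, the members had 40, of which 1 was shared (2.5%, 0.0633 to 13.2). The share was 15.6% for the whole siNEG list and 8.47% for its intervals over 1 kb from every gene end. The strongest lost sites were 66 siNEG reads (51.0 to 84.0) 286 kb from ID2, an inhibitor of basic helix-loop-helix factors, 61 reads (46.7 to 78.4) 18.9 kb from CCND1, the cyclin D1 gene, and 26 reads (17.0 to 38.1) inside EGR2, a zinc-finger factor gene. Their limits were 11, 12 and 6 reads. STEAP1 had 19 reads 0.224 kb from its end and a limit of 7, PAPPA 16 reads at 30.5 kb with a limit of 4, and BCL11B 13 reads with a limit of 6. The one shared site, inside PHF19, had 6 siEWS-FLI reads and 15 siNEG reads. LIPI, EZH2, CCK, IL1RAP, DKK2, RBM11, LOXHD1 and IGF1 had strongest siNEG sites of 4 to 11 reads, all lost, and NPY1R, GLI1 and PPP1R1A had no siNEG interval nearest to them.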

How the data were processed

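CUT&Tag was measured in TC32 cells, 1 siEWS-FLI and 1 siNEG library. The submitters' processing notes list hg38, MACS2 2.2.9.1, Bowtie2 2.4.5 and Trim Galore 0.6.6 with no roles. The authors deposited 1 peak list per library; whether a control library was used, and how duplicates were handled, is not stated in those notes or the labels. In each deposited line the fold enrichment is a linear ratio at the summit, pileup plus 1 over local background plus 1. It is followed by a −log10 p-value, then a −log10 q-value. The deposited score was not used. The smallest −log10 q-value was 1.33 with siEWS-FLI and 1.32 with siNEG.

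Lines sharing an interval were merged, keeping the highest −log10 q (6559 lines to 6370 intervals with siEWS-FLI, 17313 to 16284 with siNEG). Summit pileups were recovered as the whole number that solves both the fold and the Poisson p-value, which existed for 100% of lines at a tolerance of 0.001 in log10 p (in proportion above 10); the calculation was tested on simulated data. Read totals are not in the lists: the read ratio of 0.562 rests on both backgrounds and an assumed 2700000000 mappable bases. Gene positions came from RefSeq GRCh38.p14 (20037 protein-coding genes, all 10 members and all 18 other targets matched); promoters came from RefSeq windows of 300 bases, which hold 9 of the 10 members and not VRK1. Intervals are exact Poisson or binomial, 95%. Distances run from the summit to the nearer gene end, and "gene end" means within 1 kb. Exons and introns were not told apart.

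With 1 library a group no test was run. The rule named, at each locus, the strongest siNEG interval, the one nearest the gene, every shared one, those inside or within 10 kb, and the strongest and nearest siEWS-FLI interval. Other sites named were chosen after their values were seen, and some sites the rule names are not reported here. The 10 genes, the 18 further targets and the rules were chosen with earlier results of these data known. Computation used Python 3.11.15, numpy 2.4.6, pandas 2.3.3, scipy 1.17.1 and matplotlib 3.10.9.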

Additional observations from a re-analysis of the deposited data

How the results depend on the processing

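The 9 summary values were recomputed in 83 combinations of value and setting under 12 settings; 43 moved by less than 1.5 times for a count or stayed within the counting interval of the main value, and 40 moved. Leaving out the FCGRT window and applying the list settings to sites nearest a listed gene were chosen after seeing the data. No paired analysis was possible because each group has 1 library, and for the same reason no replicate could be left out.

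With 50% reciprocal overlap 30.6% of siEWS-FLI and 11.0% of siNEG intervals were shared. Of siNEG sites nearest a member 0 of 38 were shared, and 0 of 38 nearest one of the 18 further targets (0.0% each). No whole-list share was computed under this setting or under the q-value, width and list-length settings below. At a −log10 q of at least 5, 13 siEWS-FLI and 86 siNEG intervals remained in the windows. All 13 siEWS-FLI ones (100%) were shared, and 3 genes had a shared interval. Both nearest-gene shares were 0.0%, 0 of 23 for the members and 0 of 19 for the 18. Among intervals wider than 200 bases, 21 siEWS-FLI intervals remained, 100% shared. Both nearest-gene shares were 0.0% again, 0 of 29 for the members and 0 of 24 for the 18. The PRKCB and PHF19 sites were shared only through intervals of 200 bases. Cutting the siNEG list to the length of the siEWS-FLI list left 66 siNEG intervals, 34.8% shared. A 50 kb window held 13 siEWS-FLI and 34 siNEG intervals, with 23.1% and 8.82% shared and 2 genes with a shared interval. A 100 kb window held 18 and 44, with 38.9% of siEWS-FLI intervals shared and 2 such genes, and a 1 Mb window held 211 siNEG intervals. Sites nearest a member numbered 8 siEWS-FLI and 38 siNEG, with 12.5% and 2.63% shared, at 1 gene, with a ratio of 0.353. Sites over 1 kb from every gene end numbered 26 and 80, with 23.1% and 6.25% shared, at 3 genes. Without FCGRT there were 26 siEWS-FLI intervals, and 30.8% and 8.70% were shared. The lower counts under narrower windows and subsets follow from fewer intervals by construction; the cause of the other moves was not tested. Depth limits the weaker sites most, and at no site were a lost call and a lower read total told apart.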
